A study of Mus musculus with 33 samples.

Results

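Expression of 10 genes of regulatory T cells and immune checkpoints was followed in lymphoid organs of mice given nicotinamide (NAM, a form of vitamin B3). The genes were chosen by name and not by a rule on their values, though earlier results of these data were known. They are Foxp3, Ikzf2, Il2ra, Ctla4, Pdcd1, Lag3, Tigit, Tnfrsf18, Icos and Il10. Each has 1 row, under its own symbol, among the 56414 rows of the deposited table, of which 36109 had reads. All 10 passed the filter on low values under both tissue labels.

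RNA was taken from tumour-free C57Bl/6 mice, from samples labelled spleen or lymph node. Treated mice received NAM at 0.5% in their water over 1, 3 or 14 days, and controls were untreated. The labels have the NAM renewed weekly, whereas the study's methods describe more frequent changes. There were 5 libraries in each of the 4 groups labelled spleen, while those labelled lymph node comprised 3 untreated libraries, 2 after 1 day, 4 after 3 days and 4 after 14 days. The study's methods describe female mice and give 1 age range, in weeks, for all mice of the study and not for these in particular. They describe a single experiment on several mice, and neither they nor the labels tie a library to a mouse or say whether a mouse gave both organs, so p-values measure only the spread between these libraries.

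Regulatory T cells are CD4+ T cells that restrain immune responses, and the transcription factor FOXP3 defines and maintains them. They carry the high-affinity interleukin-2 receptor and the receptor CTLA-4, and many express ICOS, GITR and TIGIT and release interleukin-10. PD-1, LAG-3, CTLA-4 and TIGIT are also found on activated and exhausted conventional T cells, where they act as checkpoints that dampen activation, so none of these transcripts except Foxp3 is close to exclusive to regulatory T cells.

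Whole reads numbered 18325061 to 54830743 per library labelled spleen and 30424968 to 46733974 per library labelled lymph node. The members drew from 10 reads (Ikzf2 and Il10, each in its lowest library) to 3222 reads (Tnfrsf18). The tissue labels were checked against Glycam1, which encodes a mucin made by the high endothelial venules of lymph nodes, and Spic, whose product is needed for red pulp macrophages of the spleen. Glycam1 was at 108200 to 214200 normalised read counts under the spleen label and at 1.585 to 12.38 under the lymph node label, and Spic was at 774 to 1295 and at 6117 to 10490. Both genes went against the label in 33 of 33 libraries, so the text speaks of labels and not of tissues. T cell transcripts were present under both labels, with Cd3e, a subunit of the T cell receptor complex, at 2233 to 4543 under the spleen label and 1059 to 1865 under the lymph node label.

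Tnfrsf18, which encodes the costimulatory receptor GITR, was the only member that passed the limma test, and Ctla4 had the largest log2 change against untreated, so the bases before their transcription starts are shown. RefSeq promoters (GRCm38.p6) were at hand for 6 of the 10 members. The 250 bases before the start were searched on both strands for GTAAACA (forkhead), TTCNNNGAA (STAT), TGTGGTT (RUNX), TGANTCA (AP-1) and GGAAAA (NFAT), and matches are in capitals. The Tnfrsf18 sequence lies at chr4:156026072-156026321 on the plus strand and the Ctla4 sequence at chr1:60908775-60909024 on the plus strand.

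Tnfrsf18: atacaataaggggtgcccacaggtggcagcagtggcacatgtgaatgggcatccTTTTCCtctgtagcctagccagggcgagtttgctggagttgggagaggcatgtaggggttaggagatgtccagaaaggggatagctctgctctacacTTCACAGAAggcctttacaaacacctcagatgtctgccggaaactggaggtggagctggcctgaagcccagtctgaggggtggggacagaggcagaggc

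Ctla4: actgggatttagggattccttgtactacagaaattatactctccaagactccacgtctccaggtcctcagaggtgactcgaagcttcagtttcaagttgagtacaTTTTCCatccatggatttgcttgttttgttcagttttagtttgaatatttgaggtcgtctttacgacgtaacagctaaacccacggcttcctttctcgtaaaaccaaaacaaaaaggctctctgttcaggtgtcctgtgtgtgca

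The Tnfrsf18 sequence held an NFAT match starting 196 bases before the start and a STAT match starting 99 bases before it, which do not overlap each other. The Ctla4 sequence held an NFAT match starting 145 bases before the start. Of 32851 promoters searched the same way, 20.4% held the NFAT letters, 7.02% the STAT letters, 6.75% the AP-1 letters, 4.40% the RUNX letters and 3.17% the forkhead letters. Foxp3 has 2 such promoters and is counted if either holds a match, so 7 sequences were searched for the 6 members. Among the 6, NFAT letters were found in 4, STAT letters in 2, RUNX letters in 1 and the forkhead and AP-1 letters in 0. A match describes the letters alone.

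The first question was whether NAM changed the levels of these transcripts at any duration. Under the spleen label no member passed the test. At 1 day limma called 0 of the 10 members, against 16.6% of the 18243 genes tested, and edgeR and DESeq2 each called 0. Members with an unadjusted p under 0.05 numbered 3 (Il2ra, Pdcd1 and Lag3), against 30.9% of all genes. At 3 days limma, edgeR and DESeq2 each called 0, against 5.55% of all genes by limma, and 0 members had an unadjusted p under 0.05. At 14 days 0 were called by any of the 3 tools, against 0.0% of all genes by limma (0 genes, beside 510 at an unadjusted p under 0.05, 0 by edgeR and 1 by DESeq2), and 0 members had an unadjusted p under 0.05. None of the 10 had treated libraries all on one side of the untreated ones, while 11.9% of all genes did so at 1 day, 5.06% at 3 days and 0.548% at 14 days. The median log2 fold change of the members was -0.08 at 1 day, 0.00 at 3 days and 0.02 at 14 days, beside 0.01, 0.00 and 0.00 for all genes.

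Under the lymph node label Tnfrsf18 rose at 1 day and at 3 days and no other member passed by limma. By edgeR 1 member passed at each of these durations (Tnfrsf18), and by DESeq2 2 did, with Ctla4 added at 1 day and Lag3 at 3 days. At 1 day limma called 1 of 10 members, against 1.21% of 18215 genes. Members with an unadjusted p under 0.05 numbered 4 (Ctla4, Tnfrsf18, Icos and Lag3), beside 2726 of the 18215 genes. At 3 days limma called 1 of 10, against 1.24% of all genes, and 3 members (Tnfrsf18, Icos and Lag3) had an unadjusted p under 0.05, against 14.8% of all genes. At 14 days it called 0 of 10, against 0.791%. At 14 days edgeR and DESeq2 also called 0, and 1 member (Tnfrsf18) had an unadjusted p under 0.05, close to the 11.8% of all genes. Treated libraries lay wholly above the untreated ones for 5 members at 1 day (Il2ra, Ctla4, Tnfrsf18, Icos and Lag3), 3 at 3 days (Tnfrsf18, Icos and Lag3) and 1 at 14 days (Tnfrsf18). Groups did not overlap for 32.6%, 15.3% and 11.5% of all genes in these comparisons. The members' median log2 fold change was 0.37 at 1 day, 0.36 at 3 days and 0.12 at 14 days, beside 0.00 for all genes at each duration. With a score of T cell genes as a covariate these medians were 0.17, 0.22 and 0.02, and with a score of erythroid genes they were 0.29, 0.03 and -0.07. The 3 durations share their untreated libraries, so their values are not independent.

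**Figure D1:**
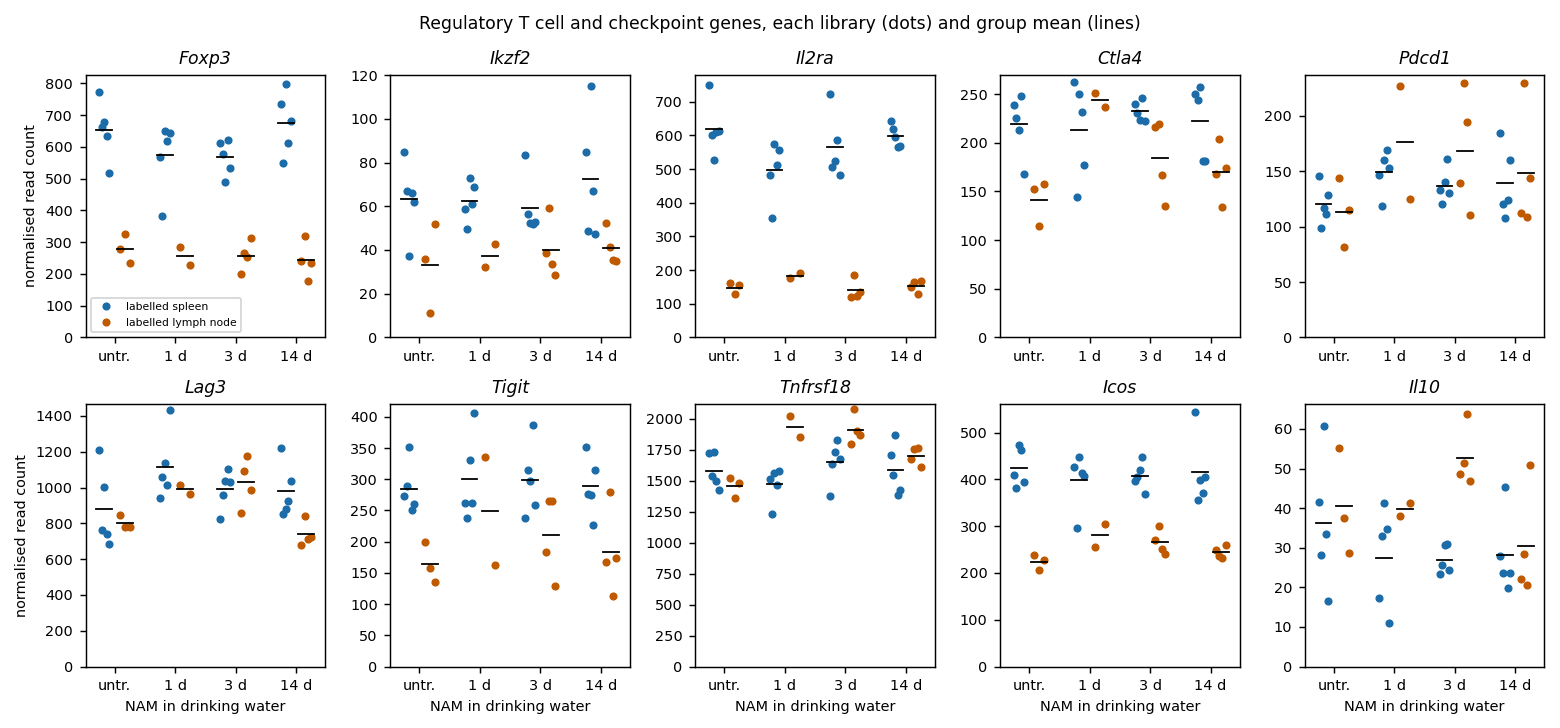
Normalised read count (linear axis from 0) of each member in each library, by duration of NAM, with libraries labelled spleen in blue and lymph node in orange and group means as black lines. Foxp3 and Il2ra stand higher under the spleen label in every group, and Tnfrsf18 under the lymph node label lies above its 3 untreated libraries at every duration.

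**Figure D2:**
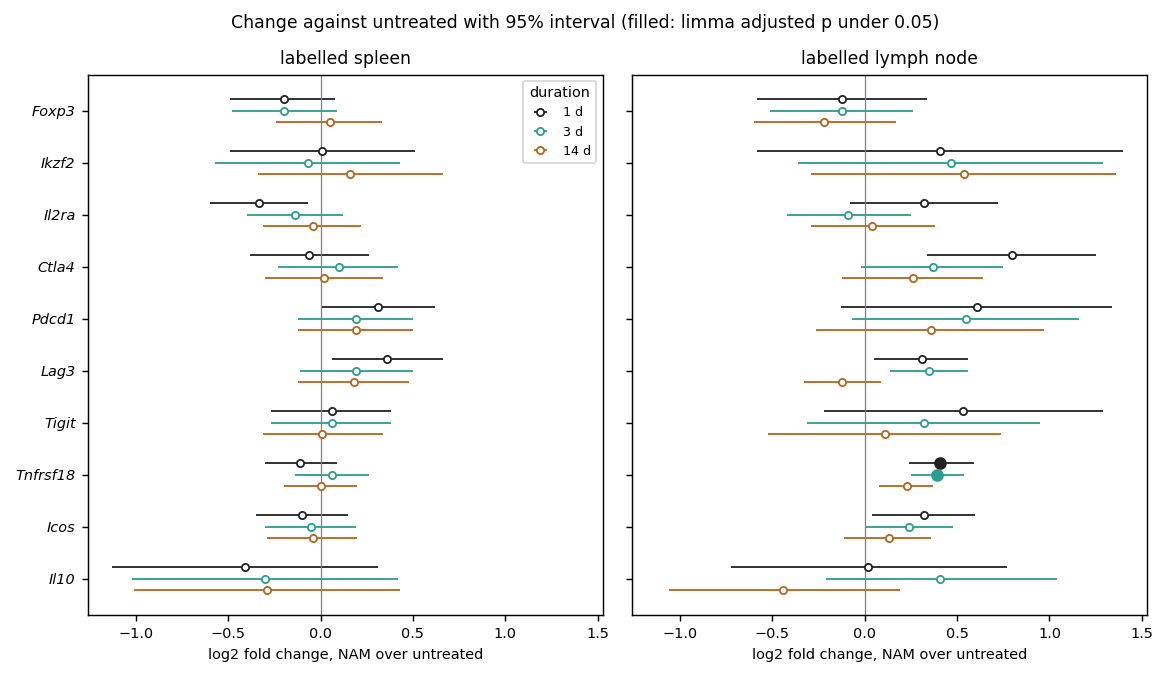
Log2 fold change of each member against untreated at 1, 3 and 14 days, with its 95% interval (limma), under the spleen label (left) and the lymph node label (right). Filled points passed at a limma adjusted p under 0.05, which only Tnfrsf18 did, under the lymph node label at 1 and 3 days.

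Among the transcription factors, Foxp3 did not pass at any duration under either label. Its row spans 7579674 to 7595243 of chromosome X (mm10) and overlaps rows of Ccdc22, Ppp1r3f and Ppp1r3fos. Whether reads were counted by strand is not given, and without it reads of overlapping genes cannot be told apart. In libraries labelled spleen, Foxp3 was at 772, 662, 679, 634 and 517 normalised read counts in untreated libraries, at 569, 382, 650.0, 619 and 644 at 1 day, at 611.5, 577, 490.1, 620.2 and 535 at 3 days, and at 735, 550.1, 797, 611 and 682 at 14 days. All groups overlapped, with the lowest value in replicate 2 at 1 day and the highest in replicate 3 at 14 days. The log2 fold changes were -0.20 (95% interval -0.49 to 0.08), -0.20 (-0.48 to 0.09) and 0.05 (-0.24 to 0.33), with limma adjusted p of 0.334, 0.435 and 1.0. In fold terms the interval at 1 day ran from 0.71 to 1.06.

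In libraries labelled lymph node, Foxp3 was at 278, 325 and 234 normalised read counts in untreated libraries, at 284.5 and 228 at 1 day, at 313, 264, 252 and 200 in descending order at 3 days, and at 242, 319.6, 177 and 233.5 at 14 days. These groups overlapped too. The log2 fold changes were -0.12 (-0.58 to 0.34), -0.12 (-0.51 to 0.26) and -0.22 (-0.60 to 0.17), with limma adjusted p of 0.855, 0.809 and 0.703.

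Ikzf2, which encodes the transcription factor Helios, was low, at 37.1 to 115 normalised read counts under the spleen label and 11.03 to 59.3 under the lymph node label. Among the spleen-labelled libraries, its log2 fold changes were 0.01, -0.07 and 0.16 at 1, 3 and 14 days, and under the lymph node label 0.41, 0.47 and 0.54. The last 3 have intervals from -0.58 to 1.40, from -0.36 to 1.29 and from -0.29 to 1.36, so each spans 0 and, in fold terms, reaches 2.64, 2.45 and 2.57. None passed. These values rest on untreated replicate 2, at 11.03 normalised read counts beside 35.7 and 51.9 in the other untreated libraries, and without it they were -0.21, -0.16 and -0.09. For the change at 1 day edgeR and DESeq2 each gave 0.17.

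Il2ra encodes CD25, the alpha chain that makes the interleukin-2 receptor high in affinity. Among the spleen-labelled libraries, it was at 749.7, 602, 528, 609 and 613 normalised read counts in untreated libraries and at 483, 354, 574, 511 and 558 at 1 day. Of the 5 libraries at 1 day, 3 lay below all untreated ones, and the groups overlapped. The log2 fold change was -0.33 (95% interval -0.60 to -0.07) with a limma adjusted p of 0.0753. At 3 and 14 days it was -0.14 and -0.04, and from 1 to 14 days 0.29 (0.03 to 0.55, adjusted p = 0.149). Replicate 2 at 1 day was the lowest of the 20 libraries labelled spleen for Foxp3, Il2ra, Ctla4, Tnfrsf18 and Icos. That library also had the lowest T cell score of the 20, 11.49 against 11.86 to 12.45 in the untreated and 14 day libraries, and the highest adipocyte score, 14.62 against 10.67 to 13.12 in untreated ones. A score is the mean log2(normalised read count + 1) over 18 T cell genes or 8 adipocyte genes. Without that library the change at 1 day was -0.22 for Il2ra (adjusted p = 0.20) and -0.06 for Foxp3 (adjusted p = 0.762). With the T cell score as a covariate it was -0.27 for Il2ra (adjusted p = 0.0898) and -0.08 for Foxp3. In bulk tissue, fewer cells of a type and less RNA per cell cannot be told apart.

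Among the lymph-node-labelled libraries, Il2ra was at 160.2, 128 and 156 normalised read counts in untreated libraries and at 176 and 191 at 1 day. The log2 fold change was 0.32 (-0.08 to 0.72) with an adjusted p of 0.461. At 3 and 14 days it was -0.09 and 0.04, with overlapping groups.

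Among the inhibitory receptors, Ctla4 had the largest difference under the lymph node label. CTLA-4 competes with CD28 for CD80 and CD86. Its transcript was at 152, 115 and 158 normalised read counts in untreated libraries, at 251 and 237 at 1 day, at 216.5, 219, 167 and 135 at 3 days, and at 168, 204, 134 and 175 at 14 days. Both libraries at 1 day lay above the 3 untreated ones, and the later groups overlapped with them. The log2 fold change at 1 day was 0.80 (95% interval 0.34 to 1.25), which did not pass by limma (adjusted p = 0.0885) or edgeR (0.0939) and passed by DESeq2 (0.0194). With the T cell score as a covariate it was 0.47 (adjusted p = 0.363). Without replicate 1 at 1 day it was 0.75, with a single library left at that duration. At 3 and 14 days it was 0.37 (adjusted p = 0.356) and 0.26 (adjusted p = 0.625). Under the spleen label Ctla4 was at 144.5 to 263 normalised read counts over all 20 libraries, and its log2 fold changes were -0.06, 0.10 and 0.02.

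Lag3 encodes a CD4-like receptor that binds MHC class II molecules. Among the lymph-node-labelled libraries, it was at 847, 779.6 and 778 normalised read counts in untreated libraries, at 1017 and 966 at 1 day, at 858, 1093, 1178 and 985.5 at 3 days, and at 680.0, 841, 711 and 726.5 at 14 days. The libraries at 1 and 3 days lay above all untreated ones and those at 14 days did not. The log2 fold changes were 0.31 (0.05 to 0.56), 0.35 (0.14 to 0.56) and -0.12 (-0.33 to 0.09), with limma adjusted p of 0.239, 0.112 and 0.705. DESeq2 gave an adjusted p of 0.0302 for the change at 3 days, which passed in 3 of 17 alternatives. With the erythroid score as a covariate it was 0.10 (adjusted p = 0.987). From 1 to 14 days Lag3 differed by -0.43 on the log2 scale (-0.67 to -0.18, limma adjusted p = 0.103).

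In libraries labelled spleen, Lag3 was at 1212, 765, 1003, 742 and 683 normalised read counts in untreated libraries and at 939, 1059, 1135, 1014 and 1431 at 1 day. Untreated replicates 1 and 3 lay within the treated range and the other 3 untreated libraries below it. The log2 fold change was 0.36 (0.06 to 0.66) with a limma adjusted p of 0.0968. It was 0.48 without untreated replicate 1 (adjusted p = 0.0239), 0.46 with the T cell score as a covariate (0.00668) and 0.54 with the adipocyte score as a covariate (0.00363). Without replicate 2 at 1 day it was 0.37 (adjusted p = 0.12). Over 20 alternatives it ran from 0.27 to 0.54, with adjusted p up to 0.225, and passed in 4. At 3 and 14 days it was 0.19 and 0.18.

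Pdcd1 encodes PD-1, the receptor for PD-L1 and PD-L2. Among the spleen-labelled libraries, it was at 145, 98.8, 117, 112 and 129 normalised read counts in untreated libraries and at 146, 119, 160.3, 169 and 153 at 1 day, with overlapping groups. The log2 fold change was 0.31 (0.00 to 0.62, limma adjusted p = 0.158). Adjusted for the T cell score it was 0.39 (adjusted p = 0.0429). Over 20 alternatives it ran from 0.24 to 0.45, with adjusted p up to 0.305, and passed in 3. At 3 and at 14 days it was 0.19. Tigit encodes a receptor for CD155 and CD112, and under the spleen label its log2 fold changes were 0.06, 0.06 and 0.01, from values of 227 to 406 normalised read counts over the 20 libraries.

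Under the lymph node label both receptors varied widely within groups. Pdcd1 was at 144, 81.6 and 115 normalised read counts in untreated libraries and at 227 and 125 at 1 day. Tigit was at 199, 158 and 135 in untreated libraries and at 336.5 and 163 at 1 day. The 2 libraries at 1 day differed more from each other than replicate 2 did from the untreated ones. In replicate 1 at 1 day the score of 8 pancreatic acinar genes was 13.66, against 1.94 in replicate 2 and 1.75 to 2.38 in the other libraries of the label; its part in the levels of Pdcd1 and Tigit was not tested. Without replicate 1 the log2 fold change at 1 day was 0.18 in place of 0.61 for Pdcd1 and 0.01 in place of 0.53 for Tigit, with the remaining library assumed to vary like the other groups. None of these passed, and the log2 fold changes at 3 and 14 days were 0.55 and 0.36 for Pdcd1 and 0.32 and 0.11 for Tigit. With the T cell score as a covariate the values at 1 day were 0.08 for Pdcd1 and 0.02 for Tigit. With the erythroid score those at 3 and 14 days were -0.04 and 0.01 for Pdcd1 and -0.16 and -0.18 for Tigit.

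Tnfrsf18 was the 1 member called by limma and by edgeR, while DESeq2 also called Ctla4 and Lag3 under the lymph node label. It lies at 156026320 to 156028894 of chromosome 4 (mm10), with no other row over it. In libraries labelled lymph node, it was at 1520, 1360 and 1486 normalised read counts in untreated libraries, at 2023 and 1851 at 1 day, at 1800, 2080, 1901 and 1872 at 3 days, and at 1673, 1753, 1768 and 1614 at 14 days. All 10 treated libraries lay above the 3 untreated ones, and the libraries at 14 days lay below all those at 1 and 3 days. Group means were 1455 ± 84.5 (SD, n = 3), 1937 ± 122 (n = 2), 1913 ± 119 (n = 4) and 1702 ± 72.0 (n = 4). The log2 fold change was 0.41 (95% interval 0.24 to 0.59, limma adjusted p = 0.0228) at 1 day and 0.39 (0.25 to 0.54, adjusted p = 0.00833) at 3 days. In fold terms these are 1.33 and 1.31. At 14 days it was 0.23 (0.08 to 0.37), which did not pass (adjusted p = 0.172). The difference from 1 to 14 days, -0.19, did not pass either (adjusted p = 0.33), and 3 and 14 days were not compared by a test.

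Other transcripts moved in the same libraries. All 8 genes of the erythroid list fell at 3 days under the lymph node label, and 2 of 8 fell at 14 days. The erythroid score lay between 9.61 and 10.26 in untreated libraries and between 9.06 and 9.66 at 1 day. It lay between 4.89 and 8.05 at 3 days and between 7.34 and 8.93 at 14 days, so neither group overlaps with the untreated libraries in it. With that score as a covariate the change of Tnfrsf18 was 0.37 at 1 day (adjusted p = 0.0394), 0.15 at 3 days (adjusted p = 0.985) and 0.08 at 14 days (adjusted p = 0.893). With the same covariate limma called 0 of all genes at 3 days in place of 226. The T cell score was 11.15 to 11.24 in untreated libraries and 11.32 to 11.37 at 1 day, without overlap. Of the 18 T cell genes, 1 rose at 1 day (Lat, in a row with more than 1 gene symbol) and a different 1 at 3 days (Cd247). Other cell type scores that did not overlap between untreated libraries and 1 day were those of macrophages and dendritic cells (12.38 to 12.41 against 12.54 to 12.56), plasma cells (10.29 to 10.38 against 10.46 to 10.99), high endothelial venules (7.01 to 7.14 against 7.51 to 7.53) and B cells (13.66 to 13.72 against 13.56 to 13.60). The scores of 4 pathway lists did not overlap either: other inhibitory receptors (9.96 to 10.01 against 10.21 to 10.31), costimulatory receptors (9.14 to 9.29 against 9.47 to 9.50), ligands and receptors paired with the members (8.81 to 8.89 against 9.05 to 9.07) and other regulatory T cell genes (9.22 to 9.24 against 9.25 to 9.34). At 3 days the scores of other inhibitory receptors (10.05 to 10.19) and of the paired ligands and receptors (8.95 to 9.19) also lay above the untreated ones, and that of high endothelial venules (7.14 to 7.45) met the highest untreated value to 2 decimals. At 14 days the score of splenic red pulp and mesenchyme lay below (11.41 to 11.81 against 11.89 to 11.94). The part of these scores in the change of Tnfrsf18 was not tested. With the T cell score as a covariate the change of Tnfrsf18 was 0.33 at 1 day (adjusted p = 0.134) and 0.35 at 3 days (adjusted p = 0.0343). Over the 13 libraries, as deviations from group means, Tnfrsf18 had a Pearson r of -0.78 with the erythroid score and of 0.54 with the T cell score; the libraries share their scaling, and these are descriptions.

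The call at 1 day also depended on single libraries. Without replicate 1 at 1 day, the library with the acinar score of 13.66, it was 0.35 (adjusted p = 0.161), without untreated replicate 2 0.36 (0.107) and without untreated replicate 3 0.43 (0.0523). At 3 days it was 0.35 (0.0795) without untreated replicate 2. The log2 change of Tnfrsf18 was above 0 in all 15 alternatives at 1 day (0.33 to 0.48) and in all 17 at 3 days (0.15 to 0.43), and it passed in 10 and 15 of them. These are the alternatives with an adjusted p. Requiring a 1.5-fold change at an unadjusted p of 0.05 or less also left Tnfrsf18 uncalled at both durations, since its folds were 1.33 and 1.31.

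**Figure D3:**
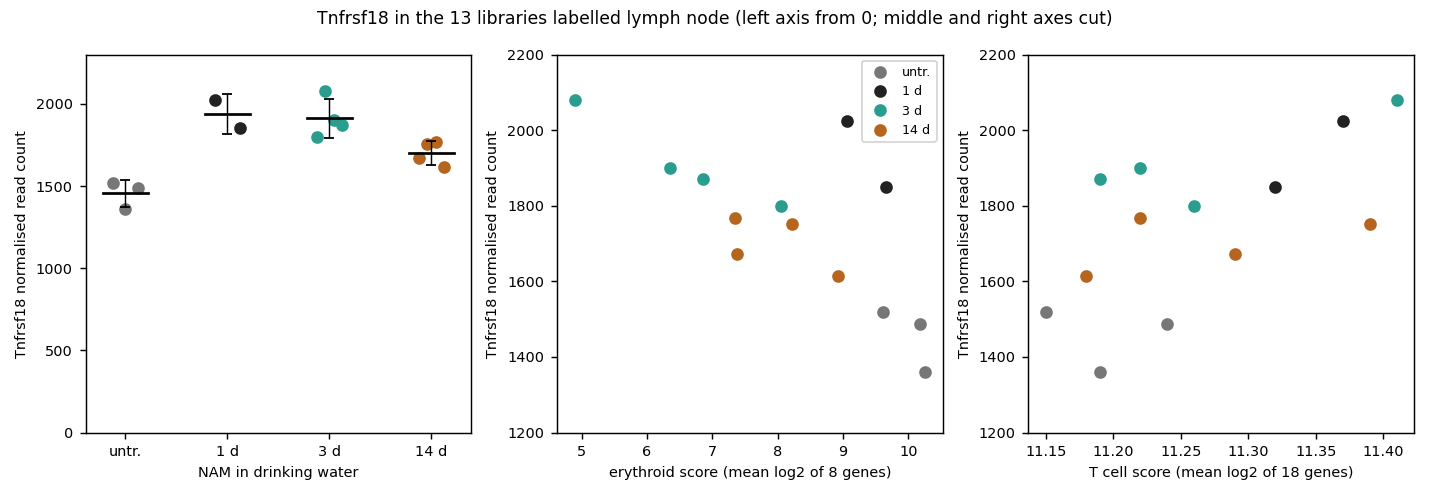
Tnfrsf18 normalised read counts in the 13 libraries labelled lymph node, by duration (left, with mean and SD, axis from 0) and against the erythroid score (middle) and the T cell score (right), whose vertical axes start above 0. All 10 treated libraries lie above the 3 untreated ones at 1360 to 1520, and libraries with lower erythroid scores tend to have more Tnfrsf18.

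Among the spleen-labelled libraries, Tnfrsf18 was at 1721, 1538, 1731, 1495 and 1429 normalised read counts in untreated libraries and at 1517, 1230, 1567, 1465 and 1579 at 1 day. Its log2 fold changes were -0.11 (-0.30 to 0.09), 0.06 (-0.14 to 0.26) and 0.00 (-0.20 to 0.20). Whether the change of a member differed between the labels was tested directly, by the difference of the log2 fold changes, spleen label minus lymph node label, in a limma fit over all 33 libraries. For Tnfrsf18 it was -0.52 at 1 day (-0.81 to -0.22, adjusted p = 0.0556), -0.34 at 3 days (adjusted p = 0.232) and -0.23 at 14 days (adjusted p = 1.0). At 1 day limma called 0 of 10 members, against 1.69% of 17147 genes, with an unadjusted p under 0.05 for 4 members (Il2ra, Ctla4, Tnfrsf18 and Icos) and 17.1% of all genes. At 3 days it called 0 of 10, against 0.735%, with 1 at an unadjusted p under 0.05 (Tnfrsf18) beside 13.1% of all genes, and at 14 days 0 of 10, against 0.14%, with 0 at an unadjusted p under 0.05. A difference between the labels was thus not shown for any member.

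Icos encodes a costimulatory receptor of activated, follicular helper and regulatory T cells, and its gene follows Ctla4 on chromosome 1, 62082 bases further on. Among the lymph-node-labelled libraries, it was at 239, 206 and 228 normalised read counts in untreated libraries, at 255.5 and 305.5 at 1 day, at 269.6, 301, 252 and 241 at 3 days, and at 249.7, 237, 232 and 259.5 at 14 days. The libraries at 1 and 3 days lay above the untreated ones. The log2 fold changes were 0.32 (0.04 to 0.60), 0.24 (0.01 to 0.48) and 0.13 (-0.11 to 0.36), with limma adjusted p of 0.267, 0.324 and 0.724. Under the spleen label they were -0.10, -0.05 and -0.04, with intervals that lay between -0.35 and 0.20.

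Il10, the anti-inflammatory cytokine of the group, was the member with the fewest reads under the spleen label. It was at 10.96 to 60.8 normalised read counts there and at 20.6 to 63.7 under the lymph node label. In libraries labelled spleen, the log2 fold changes were -0.41 (-1.13 to 0.31), -0.30 (-1.02 to 0.42) and -0.29 (-1.01 to 0.43). Among the lymph-node-labelled libraries, they were 0.02, 0.41 and -0.44. None passed. In fold terms the interval at 1 day ran from 0.46 to 1.24 for the spleen label. Its bounds were 0.61 and 1.70 for the lymph node label.

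The design also allowed 14 days to be set against 1 day. Among the spleen-labelled libraries, limma called 0 of 10 members, against 10.6% of all genes, and edgeR and DESeq2 called 0. Il2ra alone had an unadjusted p under 0.05, against 25.7% of all genes. Under the lymph node label limma called 0 of 10, against 0.401% of all genes, with 3 at an unadjusted p under 0.05 (Ctla4, Tnfrsf18 and Lag3), all lower at 14 days, against 12.8% of all genes. There edgeR called 0 and DESeq2 called 1 (Lag3, adjusted p = 0.0341).

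The other genes of the pathway were read from 5 lists that partly overlap. Among the spleen-labelled libraries, at 1 day, 1 of 30 other regulatory T cell genes rose and 4 fell, with a median log2 fold change of -0.16 beside 0.01 for all genes. This share is near the 16.6% of all genes called in that comparison, so the genes named are given for their own values and not as a result about the list. Runx1, a partner of FOXP3, fell from a mean of 489.8 ± 72.5 to one of 281.5 ± 39.5 normalised read counts (SD over 5 libraries in each group; log2 fold change -0.80, limma adjusted p = 0.00499). Foxo1, a transcription factor needed for Foxp3 induction, fell from 3466 ± 106 to 2581 ± 285 (-0.43, adjusted p = 0.00334). Nrp1, a surface receptor of thymus-derived regulatory T cells that is also found on endothelium, rose from 3764 ± 251 to 4623 ± 369 (0.30, adjusted p = 0.00579), in a row that carries more than 1 gene symbol. These 3 changes passed in all 20 alternatives, the adipocyte score as a covariate among them. At 3 days 0 rose and 4 fell (median -0.10), beside 5.55% of all genes called, among them Runx1 (-0.65, adjusted p = 0.0353) and Foxo3 (-0.43, adjusted p = 0.0333), which passed in 9 and 10 of the 20 alternatives. At 14 days 0 rose and 0 fell by limma. From 1 to 14 days, where 10.6% of all genes were called, 4 rose, including Runx1 (0.74, adjusted p = 0.0116) and Batf (0.47, adjusted p = 0.0308), and 1 fell, Nrp1 (-0.24, adjusted p = 0.0254). They passed in 20, 12 and 16 of 20 alternatives. The adipocyte score was 12.49 to 14.62 at 1 day and 10.67 to 13.12 in untreated libraries labelled spleen.

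In libraries labelled lymph node, 1 of the 30 rose at 1 day, the ectonucleotidase gene Entpd1 (CD39), from 1714 ± 105 (n = 3) to 2376 ± 139 (n = 2) normalised read counts (log2 fold change 0.47, limma adjusted p = 0.0482). It passed in 4 of 15 alternatives, and 1.21% of all genes were called there. Entpd1 then fell from 1 to 14 days (-0.58, adjusted p = 0.0201), beside 0.401% of all genes called, and this passed in 10 of 16 alternatives. At 3 and 14 days 0 of the 30 rose and 0 fell by limma. Under the spleen label Entpd1 was among the genes that fell, at 1 day (-0.27, limma adjusted p = 0.0441) and at 3 days (-0.36, adjusted p = 0.0261). Under the lymph node label, replicate 1 at 1 day is the library with the acinar score of 13.66. The macrophage and dendritic cell score there was 12.54 to 12.56 at 1 day and 12.38 to 12.41 in untreated libraries. The part of either in the level of Entpd1 was not tested.

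The lists that follow have 7 to 15 genes, and their counts at 1 day under the spleen label stand beside the same 16.6% of all genes called. Of 9 other inhibitory receptors, 0 rose and 2 fell there (median -0.17): Btla, the receptor for HVEM (-0.41, adjusted p = 0.0259), and Vsir, which encodes VISTA (-0.30, adjusted p = 0.0314). Btla then rose from 1 to 14 days (0.42, adjusted p = 0.031). These 3 changes passed in 14, 12 and 13 of 20 alternatives. Of 9 costimulatory receptors, 1 fell at 1 day under that label (median -0.24), Slamf1 (-0.43, adjusted p = 0.0167), which passed in 19 of 20. Of 15 measured ligands and receptors paired with the members, 0 rose and 0 fell at 1 day (median 0.04). At 3 days, beside 5.55% of all genes called, 1 fell and 1 rose. Cd274, which encodes the PD-1 ligand PD-L1, fell (-0.28, adjusted p = 0.0341). Nectin3, an adhesion molecule that TIGIT can bind, rose (0.55, adjusted p = 0.0434). They passed in 11 and 8 of 20. Of 10 macrophage and dendritic cell genes, 3 also fell at 3 days under that label (median -0.21), and their part was not tested. From 1 to 14 days, beside 10.6% of all genes called, Lgals3, a LAG-3 ligand (-0.27, adjusted p = 0.0412), and Il10rb, a chain of the interleukin-10 receptor (-0.33, adjusted p = 0.0427), fell, and passed in 11 and 9 of 20. Of 7 follicular helper T cell genes measured, 2 fell at 1 day (median -0.06). They were Cxcl13, the chemokine of B cell follicles (-0.62, adjusted p = 0.0155), and its receptor gene Cxcr5 (-0.40, adjusted p = 0.0365). They passed in 20 and 10 of 20. Of 8 B cell genes, 2 (Pax5 and Fcer2a) also fell at 1 day under that label (median -0.08), and their part was not tested. Among the lymph-node-labelled libraries, the lists of other inhibitory receptors, costimulatory receptors, paired ligands and receptors and follicular helper genes were read too. None of their genes passed the limma test at 1, 3 or 14 days or from 1 to 14 days. There the medians at 1 day were 0.25 for the other inhibitory receptors, 0.29 for the costimulatory receptors, 0.13 for the ligands and 0.17 for the follicular helper genes.

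Levels in untreated libraries differed between the labels, which were scaled separately, so no test was run. Foxp3 stood at 517 to 772 normalised read counts under the spleen label and 234 to 325 under the lymph node label, and Il2ra at 528 to 749.7 and 128 to 160.2. In log2 terms the spleen label was higher by 2.06 for Il2ra, 1.22 for Foxp3, 1.12 for Ikzf2, 0.91 for Icos, 0.80 for Tigit and 0.63 for Ctla4. It was higher by 0.12 for Tnfrsf18, 0.11 for Pdcd1 and 0.10 for Lag3, and Il10 differed by -0.23. The median over 17147 genes was -0.16, and the T cell score was higher by 0.97. Relative to the T cell score, Il2ra stood above (1.09) under the spleen label without overlap, and Tnfrsf18 (-0.85), Lag3 (-0.87) and Pdcd1 (-0.86) stood below without overlap. Foxp3, Ikzf2, Ctla4, Tigit, Icos and Il10 overlapped between the labels on that measure. How many of all genes did not overlap on it was not counted, so this is not a result about the members.

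**Figure D4:**
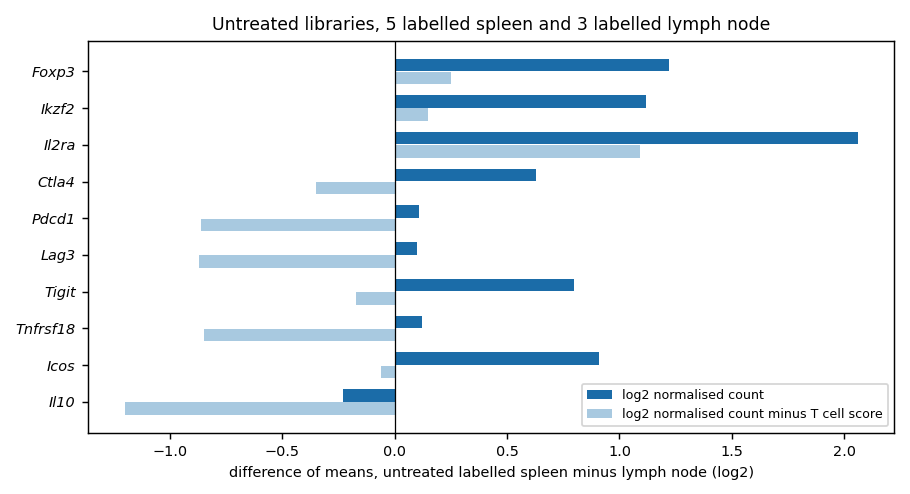
Difference of mean log2 normalised read counts between untreated libraries labelled spleen (5) and lymph node (3) for each member, before (dark bars) and after (light bars) subtracting each library's T cell score. Il2ra has the longest dark bar (2.06) and stays positive (1.09). Tnfrsf18 (0.12 to -0.85), Lag3 (0.10 to -0.87) and Pdcd1 (0.11 to -0.86) change sign. So do Icos (0.91 to -0.06), Tigit (0.80 to -0.17) and Ctla4 (0.63 to -0.35). Every bar is lowered by the same amount, the T cell score difference of 0.97.

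How the members varied together was described within groups, as Pearson r of deviations from the group means, with libraries that share depth and scaling. Under the spleen label 40 of 45 pairs of members had an r above 0, with a median of 0.39, from -0.15 (Il2ra and Il10) to 0.66 (Icos and Pdcd1, and also Foxp3 and Il2ra). The T cell score had an r of 0.86 with Foxp3, 0.81 with Tnfrsf18, 0.75 with Icos and 0.10 with Il10 over the 20 libraries, and the adipocyte score an r of -0.70 with Foxp3 and -0.81 with Tnfrsf18. Among the lymph-node-labelled libraries, 39 of 45 pairs were above 0, with a median of 0.36, from -0.35 (Foxp3 and Ikzf2) to 0.90 (Tigit and Pdcd1). There the r of Foxp3 with the T cell score was 0.28 over the 13 libraries.

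The 5 genes whose deviations were most like those of Foxp3 under the spleen label were Pydc3 (r = 0.95), Jak1 (0.93), Rbbp5 (0.93), Rnf115 (0.92) and Tmem71 (0.92), over 20 libraries. Il2ra, the closest other member, ranked 1223 of 14969 genes. Under the lymph node label they were Mtmr4 (0.99), Gtpbp1 (0.99), Rrp12 (0.98), Atxn7l1 (0.98) and Supt5 (0.97), over 13 libraries, and the closest other member, Lag3, ranked 2240 of 14769. The 5 genes named under one label were not among the 5 under the other.

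**Figure D5:**
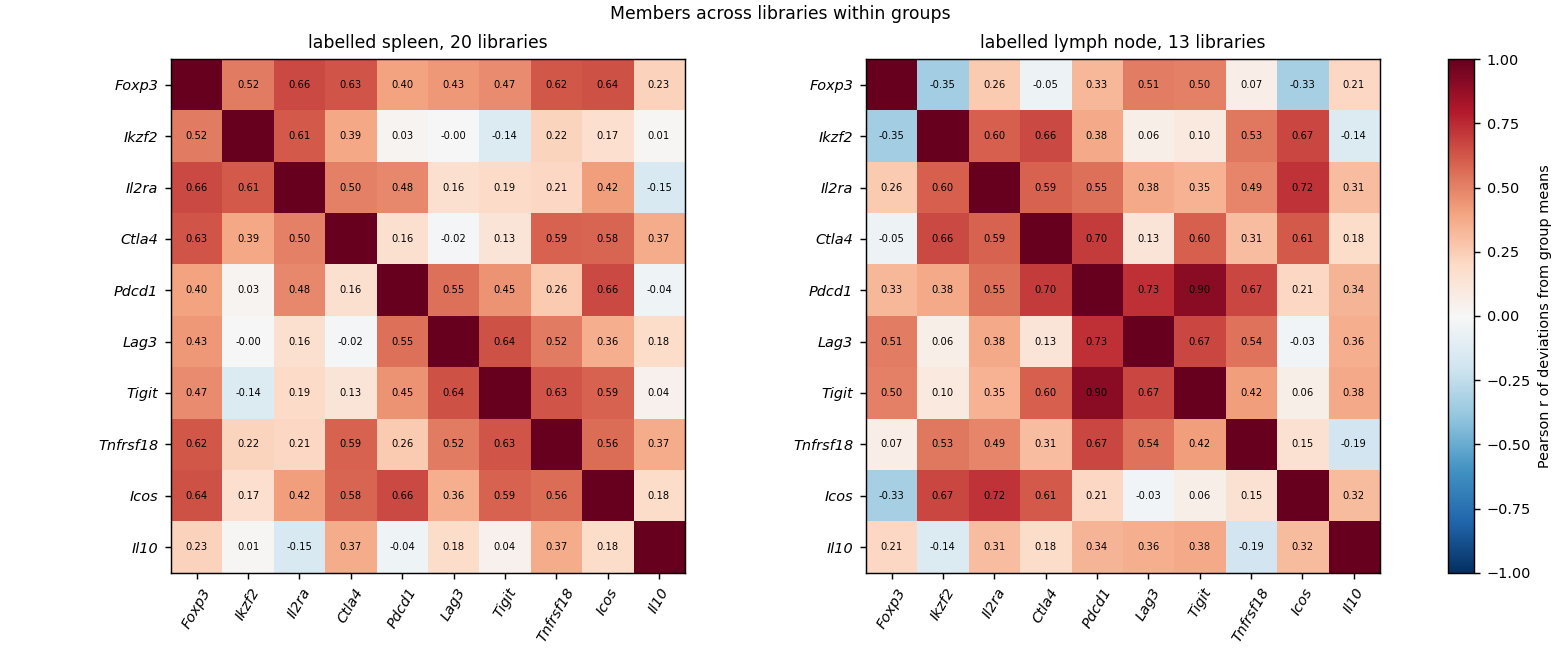
Pearson r between members across the libraries of each label, as deviations of log2(normalised read count + 1) from group means, on a scale from -1 (blue) to 1 (red). In libraries labelled spleen, 40 of 45 pairs are above 0, and under the lymph node label the strongest pair is Tigit with Pdcd1 (0.90).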

How the data were processed

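The 33 libraries were polyA RNA-seq. The authors deposited normalised read counts per gene, a linear signal in which reads are divided by a DESeq2 size factor, per the file headers and labels. The submitters' processing notes name STAR 2.4.0 and mm10, and strand use is not given in the sources used here. Columns were matched to samples by description, with 0 left unmapped. Whole reads were recovered from the step of each library, with 100% of positive values up to a set size within 0.05 of a whole number. Larger values were rounded without that check. The labels had been scaled separately, so levels were tested within a label. Among 56 pairs of replicate libraries, 0 were identical (smallest chi-square per degree of freedom 8.25).

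Values were tested as log2(normalised read count + 1), which understates changes of low genes, with limma 3.58.1 (R 4.3.3), an intensity trend, all 4 groups of a label in 1 fit, a minimum mean of 10 and two-sided p-values adjusted by Benjamini-Hochberg over all genes tested, at a threshold of 0.05. Intervals are 95% intervals of that fit. The difference between the labels came from a fit over both, which treats their libraries as separate animals. On the recovered reads, edgeR (4.0.16) and, apart from it, DESeq2 (1.42.0) served as alternatives, beside other pseudocounts, filters, weights, blocks and covariates and the omission of single libraries. At 1 day edgeR called 2976 genes in libraries labelled spleen and 222 in those labelled lymph node. The code was tested on simulated data. All 10 members are named, with at most 2 rises and 2 falls per list and comparison. The 5 genes most like Foxp3 are those with the highest r under each label. The adipocyte and erythroid covariates were added after seeing the data. Members and lists were chosen with earlier results of these data known. Intervals cover the spread between libraries.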

Additional observations from a re-analysis of the deposited data

Results flagged for a closer look

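Each member was checked for a single library far from the rest of its group, in the 60 sets of a member and a group with 4 or 5 libraries. In 3 of them the gap to the nearest library was unusually wide for the size of the group, and chance alone gives about 1 in 20.

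Icos stood at 296.3 normalised read counts in the spleen-labelled replicate 2 at 1 day, and its group otherwise ranged from 407.5 to 447.4. That is the library with the lowest T cell score of the label, 11.49. At 14 days Icos stood at 544.6 in replicate 1 of the same label, with the rest of that group between 355.8 and 405.9. For Ikzf2 the spleen-labelled replicate 1 at 3 days stood at 83.35, and its group otherwise ranged from 51.92 to 56.44. In that library Il2ra was also the highest of its group, at 724.1 against 481.8 to 586.5. Without it limma called 2782 genes at 3 days in place of 1013. No member's change differed between the labels at a limma adjusted p under 0.05.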

How the results depend on the processing

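Of the alternatives for single members, 2083 kept the side of the threshold and the direction of any call, 9 lost a call and 17 gained one. For the spleen label limma called 0 members at 1 day; 2 (Lag3 and Pdcd1) were called with library weights, 2 with the T cell score and 2 with the adipocyte score as a covariate, and 0 to 1 without single replicates (Lag3 without untreated replicate 1). At 3 days 0 became 1 with library weights (Lag3, adjusted p = 0.026). At 14 days, and between 1 and 14 days, 0 were called in every alternative run for that label. For the lymph node label 1 member was called at 1 day. It became 2 with DESeq2 (Tnfrsf18 and Ctla4), 0 with the T cell score and 0 to 1 without single replicates (0 without untreated replicate 2, untreated replicate 3 or NAM replicate 1). Requiring a 1.5-fold change at an unadjusted p of 0.05 or less also gave 1, Ctla4 in place of Tnfrsf18. At 3 days 1 was called. It became 2 with DESeq2 and 2 with library weights (Tnfrsf18 and Lag3), 0 with the erythroid score, 0 with the 1.5-fold rule and 0 to 2 without single replicates (0 without untreated replicate 2, and 2 without NAM replicate 1, where Lag3 was added). Between 1 and 14 days DESeq2 called 1 (Lag3) in place of 0. For the difference between the labels at 1 day, 0 became 1 (Tnfrsf18) with library weights, and 0 to 1 without single replicates (1 without the spleen-labelled untreated replicate 5 or NAM replicate 5). The causes were not tested.

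The replicate block (replicate number as a block) gave 0 members at 1 day for the lymph node label, where the log2 fold change of Tnfrsf18 was 0.42 (adjusted p = 0.064), and changed no other count of members. The numbers do not pair the libraries: 13 of 30 pairs for the spleen label and 0 of 16 for the lymph node label had a correlation of deviations over 0.1, and the best match was the same number in 5 of the 30 and 5 of the 16.

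Counts over all genes ranged, for the spleen label, from 1497 to 4448 at 1 day (3030 as tested), 140 to 4722 at 3 days (1013), 0 to 204 at 14 days (0) and 943 to 3443 between 1 and 14 days (1940). For the lymph node label they ranged from 66 to 894 (221), 0 to 615 (226), 3 to 630 (144) and 13 to 779 (73). For the difference between the labels they ranged from 58 to 882 (290), 33 to 1944 (126) and 4 to 30 (24). For the lymph node label the intervals against untreated were over 1 log2 unit wide for Il10 (18 to 70 reads per library), Ikzf2 (10 to 67), Tigit (99 to 407) and Pdcd1 (74 to 275).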

Other observations

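Under the lymph node label Pdcd1 and Tigit varied with a score of follicular helper T cell genes, a set that includes Bcl6, Cxcr5, Il21 and Cxcl13 and holds neither of them. As deviations from group means over the 13 libraries, the Pearson r was 0.96 for Pdcd1, 0.88 for Tigit and 0.76 for Lag3. It was 0.65 for Ctla4, 0.59 for Tnfrsf18, 0.43 for Il2ra, 0.38 for Ikzf2, 0.29 for Foxp3, 0.28 for Il10 and 0.12 for Icos. Under the spleen label the values over 20 libraries ran from -0.29 (Ikzf2) to 0.29 (Lag3), with 0.13 for Pdcd1 and 0.21 for Tigit. The 4 libraries labelled lymph node with the highest Pdcd1 were replicate 2 at 3 days (230.0 normalised read counts), replicate 2 at 14 days (229.8), replicate 1 at 1 day (227.4) and replicate 3 at 3 days (194.8), and Tigit was at 265.3, 279.9, 336.5 and 265.8 in them. The plasma cell score was 10.55, 10.52, 10.99 and 10.74 in those 4 libraries and at most 10.46 in the others of the label. Its part was not tested. The relation with the follicular helper score was noticed in the data, the difference between the labels was not tested, and libraries of a label share their scaling.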
